A study of Mus musculus with 4 samples.

Results

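The small nucleolar RNA Snord47 and 6 non-coding transcripts that carry small nucleolar RNAs (snoRNAs) in their introns were followed in late 2-cell mouse embryos after injection of siRNA against Uqcc3. The members were Snord47, Gas5, Snhg1, Snhg3, Snhg6, Snhg8 and Snhg12, taken by gene symbol, and each had 1 entry among the 47445 gene identifiers of the deposited tables. Snord47, which lies in a Gas5 intron, was selected on its own FPKM: it was listed at 0 in both controls and at high values in both siRNA libraries. Its values in this contrast are therefore given as a description, and its own test is not reported. Snord47 passed the filter through its siRNA libraries and is counted among the tested genes. The question was whether Gas5 and the other host transcripts followed it. No host passed the test in limma, and neither did any other gene, the siRNA target Uqcc3 included (0% of 12390 tested). On the deposited FPKM scale only Snhg3 among the 6 hosts had both siRNA libraries above both controls, a pattern that 8.60% of all tested genes had. Under 3 other scalings 2 to 3 hosts had it, Gas5 and, under 2 of them, Snhg8 besides Snhg3. Those scalings gave the pattern in 13.2% to 16.5% of all tested genes. The Snord47 values corresponded to about 6.63 and 1.13 fragments, numbers that were worked back from the upper FPKM bounds and are approximate.

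snoRNAs are short RNAs of the nucleolus that guide chemical modification of ribosomal RNA. Box C/D snoRNAs direct 2′-O-methylation and box H/ACA snoRNAs direct pseudouridylation, each bound by a fixed set of proteins. In mammals most are cut out of introns after splicing, so 1 precursor gives both a spliced host transcript and its snoRNAs. The spliced RNAs of Gas5 and of the Snhg family (snoRNA host genes) code for no long protein, and several are known to be translated briefly and then removed by nonsense-mediated decay. Hosts of this kind often begin with a pyrimidine tract at the cap, as messenger RNAs of ribosomal proteins do. Embryos at the late 2-cell stage have begun to transcribe their own genome.

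Snord47 is annotated on chromosome 1 from 161038082 to 161038158 (mm10, plus strand) and is 77 bases long. Gas5 spans 161034422 to 161038539 on the same strand, and GENCODE M21 places 10 snoRNA records inside it, of which Snord47 is the ninth from the 5′ end, 381 bases before the end of the gene. Of the 25 annotated Gas5 transcripts 18 span Snord47, and 2 of them, both of the retained-intron class, have an exon that overlaps it. The sequences of Snord47 and of the Gas5 snoRNAs that had a value above 0.1 FPKM in at least 1 library are shown because the question turns on them. They are DNA letters of the GENCODE M21 transcripts, 5′ to 3′, with the box C match TGATGA and the last box D match CTGA in capitals.
Mir5117 record (84 bases, annotated as a snoRNA): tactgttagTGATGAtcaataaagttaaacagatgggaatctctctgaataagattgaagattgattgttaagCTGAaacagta
Snord80 (77 bases): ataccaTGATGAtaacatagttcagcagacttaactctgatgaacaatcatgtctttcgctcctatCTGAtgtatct
Snord47 (77 bases): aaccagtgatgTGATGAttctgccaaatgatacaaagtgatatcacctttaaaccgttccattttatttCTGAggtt
Gm25789 (76 bases): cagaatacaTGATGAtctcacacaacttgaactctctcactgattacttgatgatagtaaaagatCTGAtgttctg
On the transcript strand, 8 of the 10 Gas5 snoRNA records held TGATGA followed by CTGA, as did 24.0% of 1507 annotated snoRNA sequences, which include the box H/ACA class. All 4 printed RNAs are shorter than the 150-base reads of these libraries.

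The annotated starts of the hosts were compared because hosts of this kind share a start feature. RefSeq windows (GRCm38.p6) matched 5 of the 6 hosts, Gas5 with 2 starts. Each line gives 12 bases before the start and 18 from it, with the run of C and T that covers the start in capitals.
Gas5, start at 161034601: gggcgggcccgcgagctcgacagcccggag
Gas5, start at 161035166: cgccatctcagCCTTTCggagctgtgcggc
Snhg8: ccgttcagaagTCTCTTTggctgcgatccg
Snhg12: cgttctcagTCCTTTCTCgcttcatccgcg
Snhg3: tcgaccacgcctgacttccgggcgttactt
Snhg1: gttcttgtcggCCTCatttttccttgttcg
A run of at least 5 C or T over the start was present in 3 of these 6 windows, at the downstream Gas5 start, Snhg8 and Snhg12, against 10.1% of 32851 RefSeq windows. The Snhg1 run had 4 bases, and Snhg3 and the upstream Gas5 start had none.

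The libraries came from C57BL/6N embryos of 8-week-old females, in 2 groups. The Uqcc3 siRNA group had 2 libraries, from embryos given siRNA to Uqcc3, an assembly factor of respiratory complex III, at 5 µM and 8 hpi as the labels write it. The control group had 2 libraries, for which the protocol gives a negative-control siRNA at that dose and time, while the treatment label reads "none". The number of embryos in a library and whether libraries came from separate mice are not given in the sources used here, so p-values rest on the spread between libraries alone, and that spread may be technical. Replicates were numbered in accession order.

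The deposited values are FPKM, that is, fragment numbers divided by transcript length and by library size, each with a lower and an upper bound. The fragments behind a value were read from its upper bound ("implied fragments"), and long genes with 1 transcript gave totals of about 16900000 and 19200000 fragments in the controls and 11900000 in each siRNA library. Uqcc3 stood at 147 and 211 FPKM in controls, against 23.7 and 19.8 FPKM with siRNA. Its log2 difference of -2.97 (SE 0.63) did not pass in limma either (adjusted p = 0.745). A gene that did not pass is therefore not shown to be unchanged. siRNA replicate 2 stood apart from the other libraries: it had 9771 genes at 1 FPKM or more, against 11818 to 12202, and the ribosomal RNA gene Rn18s-rs5 at 14506 FPKM, against 183 to 1023. Summed FPKM of 6 markers of 2-cell embryos was 920.1 and 1223 in controls and 552 and 231 with siRNA, and all 6 were above 1 FPKM in each library. Of 10 cumulus and granulosa markers, at most 2 reached 1 FPKM in any library, their sum lay between 1.29 and 14.1 FPKM, and Amh and Fshr were listed at 0 throughout. Sperm markers summed to 28.8 and 43.8 FPKM in controls, against 50.8 and 25.8 FPKM with siRNA, and blood markers to 33.5 and 34.5 FPKM, against 29.5 and 9.17 FPKM, with Hbb-bs at 0 throughout. Maternal oocyte markers summed to 203 and 234 FPKM, against 244 and 362 FPKM. The part of these marker differences in the results was not tested. In these whole-embryo RNAs, fewer cells of a kind and less RNA per cell cannot be told apart.

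Snord47, a box C/D snoRNA that guides methylation of the large-subunit ribosomal RNA, was listed at 0 in control replicates 1 and 2, at 146 FPKM in siRNA replicate 1 and at 99.6 FPKM in siRNA replicate 2. The authors' bounds were 32.6 to 260.1 FPKM in siRNA replicate 1 and 0 to 287 FPKM in siRNA replicate 2. The first range excludes 0 and the second does not. The 146 FPKM corresponded to 6.63 implied fragments and the 99.6 FPKM to 1.13. Neither is a whole number, although Snord47 has 1 annotated transcript, so these fragment numbers are approximate. A count of 0 in a control allows up to 3 fragments. No fold change is given, since both controls are listed at 0. One implied fragment was worth 22.1 and 88.4 FPKM for Snord47 in siRNA replicates 1 and 2, and 0.283 and 0.335 FPKM for its host Gas5. The 2 Snord47 figures differ although both libraries had the same implied total of about 11900000 fragments, and the reason was not tested. Gas5 has 25 annotated transcripts, so its implied fragments are too low and its FPKM per fragment is too high. In both libraries this very short gene reached a high FPKM from few implied fragments. Fragments of short intronic RNAs were counted in libraries primed with oligo(dT), and whether they came from the snoRNA or from unspliced Gas5 RNA was not tested.

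None of the other snoRNA records inside Gas5 was at 0 in both controls and above 0 in both siRNA libraries. The Mir5117 record stood at 0 and 20.8 FPKM in controls, against 224 and 0 FPKM with siRNA, with 14.8 implied fragments in siRNA replicate 1. Snord80 (ENSMUSG00000105780.1) stood at 26.5 and 0 FPKM in controls, against 45.4 and 35.1 FPKM with siRNA, with at most 1.64 implied fragments in any library. The siRNA values of Snord80 thus lay above both controls but all 4 values were under the 3-fragment limit. Gm25789 was listed at 16.8 FPKM in siRNA replicate 1 (0.571 implied fragments) and at 0 elsewhere. Of the remaining 6 records, 5 were listed at or near 0 in every library, and the overlapping second Snord80 record reached only 0.017 FPKM, in siRNA replicate 2. Summed over the 10 records, implied fragments were 1.21 and 0.478 in controls and 23.7 and 1.54 in siRNA replicates 1 and 2. Most of the implied fragments of these snoRNA records therefore lay in siRNA replicate 1.

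**Figure D1:**
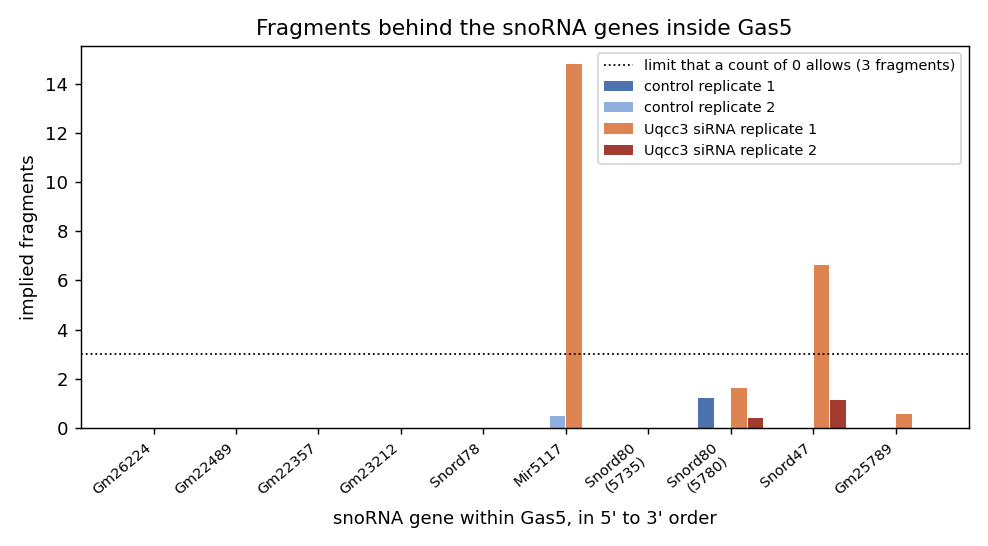
Implied fragments (y axis) of the 10 snoRNA records inside Gas5, in 5′ to 3′ order (x axis), with 1 bar per library and the 3-fragment limit dotted; the 2 Snord80 records carry the end of their gene identifier. The tallest bars are those of the Mir5117 record (14.8) and Snord47 (6.63), both in siRNA replicate 1.

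The snoRNAs of the other hosts were as thinly covered. The 6 hosts hold 27 annotated snoRNA records of 60 to 205 bases, of which 16 had a value of at least 0.001 FPKM in some library. Records with at least 3 implied fragments numbered 1 and 0 in the controls, and 4 and 2 with siRNA. Inside Snhg1, Gm24453 stood at 138 FPKM in siRNA replicate 1 alone (6.02 implied fragments), and Gm25894 at 213 FPKM in siRNA replicate 2 (3.14 implied fragments), 15.1 FPKM in control replicate 1 and 0 in the other 2 libraries. Each was high in 1 siRNA library and at 0 in the other. Inside Snhg3, Snora73b, a box H/ACA snoRNA, stood at 5.59 and 0 FPKM in controls, against 2.78 and 82.3 FPKM with siRNA, the last from 67.1 implied fragments. That was the best-covered snoRNA value of the 6 hosts, and it too belonged to 1 library. The gene Rcc1, which overlaps this stretch on the same strand, was also highest in siRNA replicate 2. It stood at 32.8 FPKM there, against 0.824 to 3.29 FPKM in the other libraries. Whether the fragments came from the snoRNA was not tested.

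Of the 132 rows named Snord, Snora or Scarna, 32 reached the filter for testing, and 71 were at 0 in all 4 libraries. The pattern of Snord47, 0 in both controls and above 0 in both siRNA libraries, was shared by 1 other row, Snora23 (1.42 and 4.26 FPKM, 1 and 3 implied fragments). The reverse pattern was found in 1 row, Snord11, at 19.6 and 21.3 FPKM in controls (1.99 and 1 implied fragments) and 0 with siRNA. Among the 1555 rows annotated as snoRNA or scaRNA, 5 had the first pattern and 8 the reverse. Over all 47445 identifiers, 494 had the first and 443 the reverse. Rows above 0 were most numerous in siRNA replicate 1, with 49 of the 132, against 32 and 28 in controls and 13 in siRNA replicate 2.

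Gas5 (ENSMUSG00000053332.13), whose spliced RNA accumulates in growth-arrested cells, was the most abundant host in every library on the FPKM scale. Its controls read 319 and 229 FPKM, from 1582 and 1306 implied fragments, and its siRNA libraries 313 and 483 FPKM, from 1109 and 1440.3. siRNA replicate 1 lay between the 2 controls and siRNA replicate 2 above them, so the groups overlapped on deposited FPKM. They did not overlap under TPM rescaling, median-of-ratios scaling or quantile normalization, where the log2 difference was 0.96, 0.91 and 1.12. Control libraries averaged 274 ± 63.9 FPKM (SD, n = 2), siRNA libraries 398 ± 119.8 FPKM (SD, n = 2), a ratio of 1.45. The difference on the log2(FPKM + 1) scale was 0.52 (SE 0.60) and did not pass in limma (adjusted p = 0.838). Zbtb37, which encodes a zinc finger protein, overlaps Gas5 by 428 bases on the opposite strand and stood at 9.49, 2.30, 3.81 and 3.11 FPKM in the same order. The protocol names no strand-keeping step, so reads of the overlap cannot be told apart.

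Snhg3 (ENSMUSG00000085241.7; chromosome 4, 132348014 to 132353686, minus strand), host of Snora73a and Snora73b, was the only host with both siRNA libraries above both controls on deposited FPKM. It stood at 195 and 146 FPKM in controls, against 299 and 240.2 FPKM with siRNA, and the groups did not overlap. The means were 170.3 ± 34.8 FPKM (SD, n = 2) and 270 ± 41.7 FPKM (SD, n = 2), a ratio of 1.58. The log2 difference was 0.67 (SE 0.58), which did not pass in limma (adjusted p = 0.803). Of all 12390 tested genes, 8.60% had both siRNA libraries above both controls, and 1 of the 6 hosts did. Snhg3 shares its strand and 5592 bases of its span with Rcc1, which encodes a chromatin-bound exchange factor for the GTPase Ran. Rcc1 stood at 3.29 and 1.43 FPKM in controls, against 0.824 and 32.8 FPKM with siRNA, and the division of reads between the 2 genes is uncertain. The non-coding gene Gm17300 overlaps Snhg3 by 1611 bases on the opposite strand. It stood at 5.23 and 1.83 FPKM in controls, against 1.23 and 8.6 FPKM with siRNA. Without a named strand-keeping step, reads of that overlap cannot be told apart either.

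Snhg1, Snhg6 and Snhg8 had 1 pattern in common: siRNA replicate 1 was the lowest of the 4 libraries and siRNA replicate 2 the highest. Snhg1 (ENSMUSG00000108414.1; chromosome 19, 8723475 to 8726443, plus strand), host of 8 annotated snoRNA records, lies 154 kb from Uqcc3. It stood at 96.1 and 99.5 FPKM in controls, against 63.1 and 239 FPKM with siRNA. The controls differed 1.03-fold and the siRNA libraries 3.78 times apart. The log2 difference of the groups was 0.33 (SE 0.76; limma adjusted p = 0.930), made of -0.62 (siRNA replicate 1) and 1.28 (siRNA replicate 2).

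Snhg8 (ENSMUSG00000104960.1; chromosome 3, 123507552 to 123508404, minus strand), host of Snora24, stood at 78.2 and 66.5 FPKM in controls, against 64.5 and 264 FPKM with siRNA. siRNA replicate 1 lay just under the lower control, and siRNA replicate 2 far above both. Its log2 difference of 0.85 (SE 0.78; limma adjusted p = 0.808) split into -0.16 and 1.86 in siRNA replicates 1 and 2. It passed in limma only when siRNA replicate 1 was left out (log2 difference 1.86, adjusted p = 0.0453), a fit that sets siRNA replicate 2 alone against the controls and in which 1477 genes passed. Over all its alternatives the limma adjusted p ranged from 0.0453 to 1.0. Snora24 was listed at or near 0 in all 4 libraries.

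Snhg6 (ENSMUSG00000098234.7; chromosome 1, 9941959 to 9944118, minus strand), host of Snord87, stood at 88.3 and 58.4 FPKM in controls, against 55.7 and 149 FPKM with siRNA. siRNA replicate 1 was close to the lower control, and siRNA replicate 2 lay above both. The log2 difference was 0.34 (SE 0.71; limma adjusted p = 0.921), made of -0.36 and 1.05 in the 2 siRNA libraries. Its snoRNA Snord87 was above 0 in control replicate 2 alone, at 18.3 FPKM from 1 implied fragment.

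Snhg12 (ENSMUSG00000086290.8; chromosome 4, 132308678 to 132311024, plus strand), host of box H/ACA snoRNAs and Snord99, was the least abundant host and went the other way in the siRNA libraries. It stood at 17.0 and 21.5 FPKM in controls, 24.8 FPKM in siRNA replicate 1 and 8.87 FPKM in siRNA replicate 2. siRNA replicate 1 was the highest of the 4 and siRNA replicate 2 the lowest. The log2 difference was -0.34 (SE 0.83; limma adjusted p = 0.935). It rested on 37.2 implied fragments in siRNA replicate 2, against 109.9 to 167 in the other libraries.

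**Figure D2:**
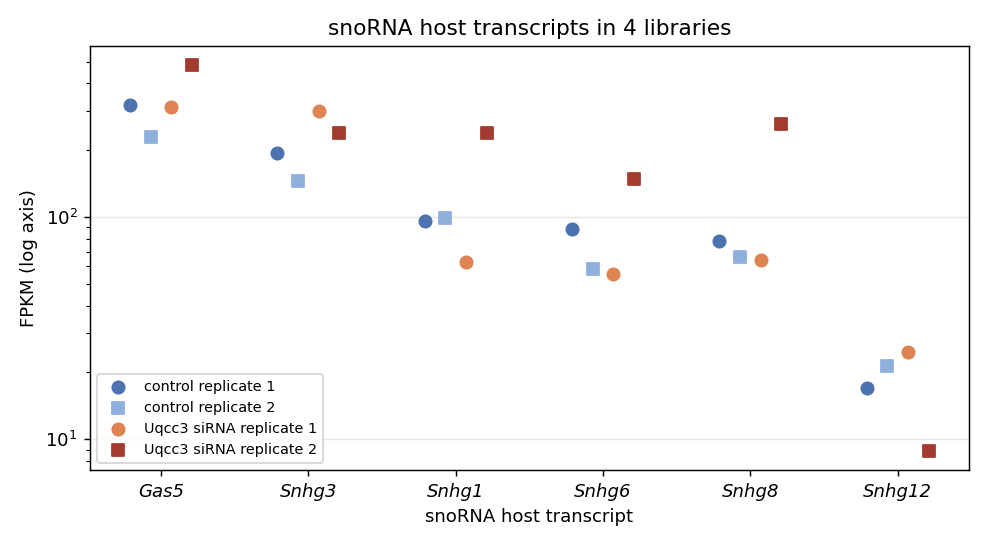
FPKM (log y axis) of the 6 host transcripts (x axis), with 1 point per library: blue for controls, orange and red for siRNA replicates 1 and 2. In Snhg3 both siRNA points lie above both controls; in Snhg1, Snhg6 and Snhg8 the siRNA points lie on opposite sides of the controls.

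The hosts kept much of their order of abundance. In the controls Gas5, Snhg3 and Snhg1 followed each other without overlap, Snhg1 lay above Snhg6 (73.3 ± 21.2 FPKM, SD, n = 2) without overlap, and Snhg6 and Snhg8 (72.3 ± 8.27 FPKM, SD, n = 2) overlapped. Snhg12 (19.2 ± 3.24 FPKM, SD, n = 2) lay below them all. With siRNA, Gas5 still lay above Snhg3 in both libraries, while Snhg1, Snhg6 and Snhg8 overlapped each other and Snhg8 reached Snhg3. The 6 hosts summed to 794 and 620.4 FPKM in controls, against 821 and 1383 FPKM with siRNA, or 0.116%, 0.0892%, 0.138% and 0.317% of summed FPKM. The last of these is siRNA replicate 2, whose summed FPKM was the smallest of the 4.

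None of the 6 hosts passed in limma, and of all 12390 tested genes 0 (0%) passed, with 738 at an unadjusted p under 0.05 (92 higher and 646 lower with siRNA). Of the 6 hosts, 0 had an unadjusted p under 0.05. With 2 libraries against 2, an exact permutation test of 1 gene cannot give a two-sided p below 0.33. Differences were read beside all tested genes, whose median log2 difference was -0.39, with -0.30 and -0.57 in the siRNA libraries. The median over the 6 hosts was 0.43, with 0.027 and 0.94 in the 2 siRNA libraries. siRNA replicate 2 was the highest of the 4 libraries in 4 of the 6 hosts (Gas5, Snhg1, Snhg6 and Snhg8), or 66.7%, against 30.5% of all tested genes. siRNA replicate 1 was the lowest in 3 of the 6, against 25.6% of all. No host had both siRNA libraries below both controls, a pattern that 30.0% of all tested genes had. The gap between the siRNA libraries was 2.02 for Snhg8, 1.90 for Snhg1 and 1.41 for Snhg6 on the log2 scale, -1.38 for Snhg12, 0.62 for Gas5 and -0.32 for Snhg3. The median size of this gap over all tested genes was 1.28, so the hosts lay on both sides of it.

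**Figure D3:**
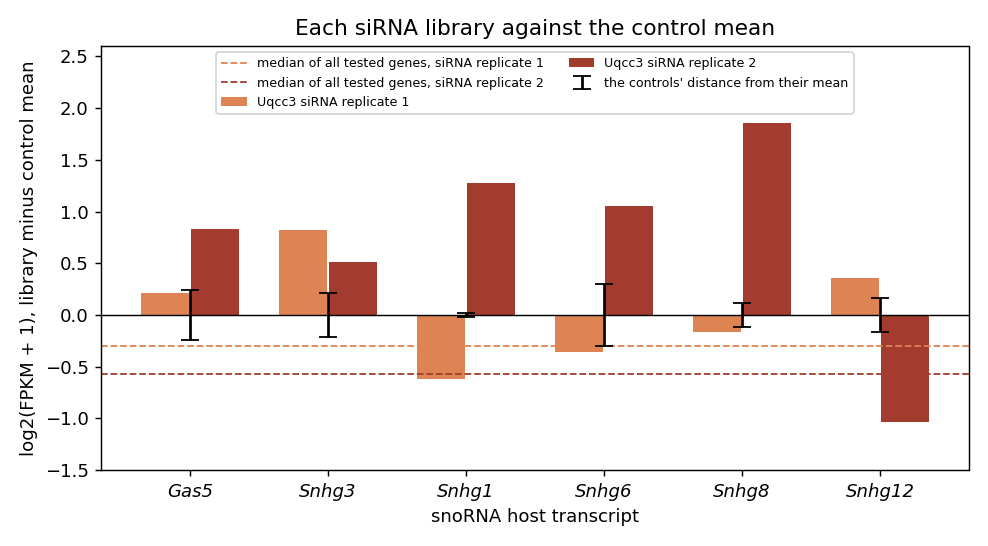
Difference of each siRNA library from the control mean on the log2(FPKM + 1) scale (y axis) for the 6 hosts (x axis); black bars show how far the 2 controls lie from their mean, and dashed lines are medians of all tested genes (-0.30 and -0.57). The bars of siRNA replicates 1 and 2 point the same way only for Gas5 and Snhg3.

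Scaling between libraries moved these values. The median of all genes was -0.085 after rescaling to TPM, -0.083 after median-of-ratios scaling and 0.012 after quantile normalization. Relative to the median of all genes, Gas5 lay at 0.91 as deposited and at 1.04, 1.00 and 1.11 under the 3 scalings. Both siRNA libraries then lay above both controls for Gas5 as well as Snhg3 under each of the 3 scalings, and for Snhg8 under median-of-ratios scaling and quantile normalization. Of all tested genes 13.2%, 16.0% and 16.5% had that pattern under the 3 scalings. The log2 difference of Snhg12 changed sign under each of them (0.068, 0.034 and 0.012). The fold changes of the hosts passed under none of the 3 in limma.

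Genes beside the hosts were described by position. Slc3a2, which encodes the heavy chain of an amino acid transporter and starts 106 bases from Snhg1 on the other strand, stood at 42.1 and 51.9 FPKM in controls, against 18.6 and 22.6 FPKM with siRNA. Both its siRNA values lay below both controls, unlike Snhg1, and its log2 difference of -1.15 did not pass in limma (adjusted p = 0.745). Trnau1ap, which encodes a factor of selenocysteine insertion 739 bases from Snhg12, stood at 131 and 82.5 FPKM against 79.0 and 64.8 FPKM. Phactr4, a phosphatase and actin regulator 2237 bases from Snhg3, stood at 2.71 and 2.40 FPKM against 6.64 and 10.1 FPKM (log2 difference 1.37, limma adjusted p = 0.759). Prss12 and Ndst3, next to Snhg8, were at 0.227 FPKM or less.

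Other snoRNA hosts with an Snhg name or a non-coding annotation were read beside the 6 members. The annotation puts Cct6a, which encodes a chaperonin subunit, among them, and Snhg11 stands both here and among the protein-coding hosts. Of 51 such genes, found by their Snhg name or by an annotated snoRNA inside them, 29 were tested and 0 passed in limma. Both siRNA libraries lay above both controls in 1 (3.45%, against 8.60% of all) and below in 8 (27.6%, against 30.0% of all). The median log2 difference was -0.29, against -0.39 for all tested genes. Snhg17 stood at 58.7 and 29.6 FPKM in controls, against 17.9 and 9.58 FPKM with siRNA (log2 difference -1.60). Snhg20 stood at 171 and 84.1 FPKM against 59.1 and 36.2 FPKM (-1.35). 2700038G22Rik and 1810032O08Rik had log2 differences of -2.08 and -3.18. Epb41l4aos was the 1 gene above, at 10.0 and 16.4 FPKM in controls, against 16.9 and 34.0 FPKM with siRNA; it was named after its values were seen. Snhg5 (165 and 209.9 FPKM against 153 and 216 FPKM) and Snhg9 (111 and 148 FPKM against 151 and 99.6 FPKM), named here for their abundance after their values were seen, had overlapping groups.

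Protein-coding snoRNA hosts numbered 255, of which 191 were tested and 0 passed in limma. Both siRNA libraries lay above both controls in 12 (6.28%) and below in 54 (28.3%), close to the shares of all genes. Timm23, a channel of mitochondrial protein import, stood at 103 and 58.6 FPKM in controls, against 25.9 and 5.02 FPKM with siRNA. Ranbp1, a Ran-binding protein, stood at 85.0 and 135 FPKM, with siRNA 32.4 and 27.8 FPKM. Mpdz, a scaffold protein with PDZ domains, went the other way, from 2.35 and 0.656 FPKM to 9.28 and 29.3 FPKM. None of these 3 passed in limma (adjusted p = 0.745 for each). The median of the list was -0.22, with -0.57 in siRNA replicate 1 and 0.12 in siRNA replicate 2, against -0.39, -0.30 and -0.57 for all tested genes.

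Proteins that build and carry snoRNAs were read in the same way. Of 22 listed names of snoRNP (the snoRNA-protein particle) core and assembly proteins, 19 were tested, 12 (63.2%, against 30.0% of all tested genes) had both siRNA libraries below both controls and 0 above, and the median was -0.90, with -1.16 and -0.88 in the 2 libraries. No member passed in limma. Nhp2, a core protein of box H/ACA particles, stood at 749 and 709 FPKM in controls, against 268 and 141 FPKM with siRNA (log2 difference -1.90, SE 0.61). Znhit3, an assembly factor of box C/D particles, stood at 1376 and 962 FPKM against 513 and 283 FPKM (-1.59). The ATPases Ruvbl1 and Ruvbl2, which act in assembly, had log2 differences of -1.74 and -2.41. The adjusted p of these 4 was 0.745 each in limma.

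Factors of RNA decay and of the exon junction complex, which marks spliced RNA, were read as 2 lists. Of 18 names of nonsense-mediated decay and the exon junction complex, 14 were tested, 1 (7.14%, against 8.60% of all tested genes) lay above and 1 (against 30.0% of all) below. The median was 0.12 (all tested genes -0.39), with -0.36 and 0.90 in the siRNA libraries. siRNA replicate 2 was the highest library in 10 of the 14 (71.4%, against 30.5% of all tested genes). Magohb, a core protein of the exon junction complex, stood at 22.5 and 16.1 FPKM in controls, against 33.6 and 42.8 FPKM with siRNA, and its partner Rbm8a at 389 and 369 FPKM against 208 and 342 FPKM. Upf2, a factor of decay itself, had a log2 difference of 0.65 with overlapping groups. Of 18 names of the RNA exosome and debranching, 15 were tested and 8 (53.3%, against 30.0% of all tested genes) lay below and 1 (6.67%, against 8.60%) above, with a median of -0.56 (all tested genes -0.39). This list also holds the RNA decay enzymes Xrn1, Xrn2 and Parn, which belong to neither group, and Xrn1 was among those below. Exosc9 and Exosc4, exosome core subunits, had log2 differences of -2.81 and -2.30, and Exosc1 and Exosc2 of -1.47 and -1.49. No member of either list passed in limma.

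Cytosolic ribosomal proteins had 80 tested members, of which 41 (51.2%, against 30.0% of all tested genes) lay below, 1 (1.25%, against 8.60% of all) above and 0 passed in limma. The median was -0.73 (all tested genes -0.39), with -0.90 and -0.57 in the 2 siRNA libraries, where the 6 hosts had 0.027 and 0.94. Fau, Rpl19 and Rpl35 had log2 differences of -2.28, -2.31 and -1.45. Near-identical copies of these genes make single values uncertain.

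**Figure D4:**
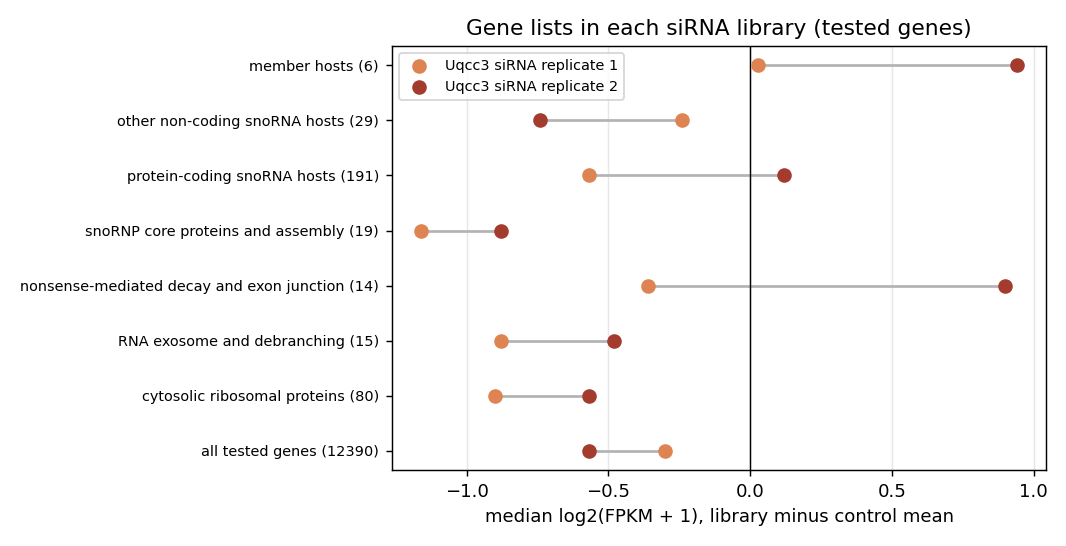
Median difference from the control mean on the log2(FPKM + 1) scale (x axis) for each gene list (y axis, number of tested genes in brackets), with 1 point per siRNA library. The 6 hosts have medians of 0.027 and 0.94, and snoRNP proteins of -1.16 and -0.88, against -0.30 and -0.57 for all tested genes; snoRNA rows are not plotted.

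The genes whose profile over the 4 libraries was most like that of Gas5, by Euclidean distance between log2(FPKM + 1) values centred per gene among 8486 genes, were Nol4l, Arhgap12, Scml2, Fmn2 and Papd4, at distances of 0.08 to 0.11. Fmn2, an actin nucleator of the oocyte, stood at 14.4 and 10.3 FPKM in controls, against 15.2 and 24.3 FPKM with siRNA. Papd4, a cytoplasmic poly(A) polymerase, stood at 20.0 and 13.8 FPKM against 20.9 and 29.5 FPKM. Nearest to Snhg1 were Anp32e, the pseudogene Gm5909, Rspry1 and Odc1, at 0.05 to 0.11. Odc1, ornithine decarboxylase, stood at 59.5 and 63.0 FPKM in controls, against 36.6 and 139 FPKM with siRNA. For Snord47 the nearest was the gene Gm22133, annotated as a microRNA, at a distance of 1.67 (0.00107 and 0 FPKM in controls, 184 and 28.1 FPKM with siRNA). The snoRNA genes Gm25767 and Gm24412, the ribosomal RNA gene n-R5s153 and the antisense gene Gm26737 followed. Distances were not scaled to the size of a gene's differences, and Snord47 was selected for large ones. Its larger distances therefore say nothing of how unusual its profile is. Profiles over 4 libraries share depth and library quality, so likeness says nothing of shared control.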

How the data were processed

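RNA of 2 control and 2 Uqcc3 siRNA libraries was measured by paired sequencing of oligo(dT)-primed, amplified cDNA, per the labels' protocols. The authors deposited FPKM with bounds, per the file headers. Cufflinks 2.2.1, Cuffdiff 2.2.1, STAR 2.7.3a, Trim Galore 0.6.5, SAMtools 1.7 and the build mm10 appear in the submitters' processing notes; their annotation release was not stated there. Rows of 1 identifier were summed (50 identifiers had several). Of the identifiers, 99.1% matched GENCODE M21.

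Implied fragments are (2 × FPKM / (upper bound − FPKM)) squared; among genes with 1 transcript and up to 30 fragments, 70.8% to 75.9% came out whole within 0.05. For genes with several transcripts the bound also holds assignment error, so the number is too low. Limits drawn from them cover counting error only, because PCR copies are not separate molecules. Values under 0.001 FPKM were taken as 0 when snoRNA rows were counted, a choice made after seeing the data.

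Genes reaching 1 FPKM in 2 or more libraries were tested (12390; 2 failed estimates left out) with limma 3.58.1 in R 4.3.3 on log2(FPKM + 1), two-sided, with an abundance trend, Benjamini-Hochberg adjustment and a threshold of 0.05. The pseudocount understates changes of low genes. The test was run on simulated data first. Named are the members, snoRNAs inside them, neighbouring genes, the 4 genes per list lowest in unadjusted p, and the 5 most similar genes to Gas5, Snhg1 and Snord47; a few others are marked as chosen later, and some that the rule names are not reported here. The members and lists were chosen with earlier results of these data known. Alternatives were another pseudocount, other filters, 3 scalings, no trend, the highest row per gene, and each library left out.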

Additional observations from a re-analysis of the deposited data

How the results depend on the processing

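Of 72 values of the 6 hosts' log2 differences under alternatives, 64 kept their sign and side of the threshold in limma, 7 changed sign and 1 passed. Without siRNA replicate 2, Snhg1, Snhg6, Snhg8 and Snhg12 changed sign (-0.62, -0.36, -0.16 and 0.36); without siRNA replicate 1 they were 1.28, 1.05, 1.86 and -1.03. Snhg12 also changed sign with TPM, median-of-ratios scaling and quantile normalization (0.068, 0.034 and 0.012). Gas5 ranged from 0.21 to 1.12 and Snhg3 from 0.46 to 1.21. Hosts with both siRNA libraries above both controls numbered 1 in the main fit, where 8.60% of all tested genes had that pattern. They numbered 2 with TPM (13.2% of all tested genes) and 3 under either of the other scalings (16.0% and 16.5%). With 1 library left out they numbered 1 to 5, against 16.4% to 32.0% of all tested genes. The 5 came from the fit without siRNA replicate 1, so it rests on siRNA replicate 2 alone. The cause of these shifts was not tested. With 1 library left out, genes past the threshold in limma ranged from 0 to 1477 and hosts from 0 to 1; members past it ranged from 0 to 3 for other non-coding hosts, 0 to 23 for protein-coding hosts, 0 to 11 for snoRNA rows, 0 to 3 for snoRNP proteins, 0 to 1 for decay factors, 0 to 3 for the exosome and 0 to 11 for ribosomal proteins. In the order given, the lists had 29, 191, 32, 19, 14, 15 and 80 tested members, and all tested genes numbered 12390. Each upper end belongs to the fit without siRNA replicate 1, which leaves siRNA replicate 2 alone and assumes that it varies like the controls. Whether any list exceeded the share of all tested genes in that fit was not tested, so no upper end is read as specific to a list. No paired analysis was possible because the labels carry no replicate numbers. Depth limits Snord47, with 6.63 and 1.13 implied fragments.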
